A study of Caenorhabditis elegans with 53 samples.

Results

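In adult C. elegans carrying the mutant allele ne219 of the RDE-1 Argonaute gene, 80 rows of antisense 22G-RNAs stood at least 3-fold above wild type. They were chosen from 31584 rows of 22G-RNAs, each row being 1 gene in 1 small RNA class, in the table that set 3 rde-1(ne219) libraries beside 3 wild type libraries. A row was taken when its mutant mean was at least 10 RPM (read counts scaled by library size), its wild type mean was under 100 RPM, and the ratio of the means, with 1 RPM added to each, was at least 3. Since these values chose the rows, the difference between the mutant and the wild type is described below and was not tested. Of the 80 genes, 38 were listed by the authors as targets of the WAGO class of Argonautes, 4 as targets of the CSR-1 class, and 38 had unclassified 22G-RNAs.

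22G-RNAs are short antisense RNAs that RNA-dependent RNA polymerases copy from messenger RNA, and they carry a triphosphate at the 5′ end and usually begin with guanosine. Those bound by WAGO Argonautes are known for silencing genes, transposons and pseudogenes, and those bound by CSR-1 for marking transcripts expressed in the germ line. RDE-1 is a primary Argonaute that takes up small RNAs cut by Dicer (DCR-1) from double-stranded RNA and leads the polymerases to matching transcripts, so that worms without it do not respond to most introduced double-stranded RNA.

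All animals were hermaphrodites grown at 20 °C for 72 to 75 h from synchronized L1 larvae on bacteria and collected as whole gravid adults, except 2 libraries of mixed stage embryos. The adult small RNA groups used here were wild type N2 (n = 3), WM27 carrying rde-1(ne219) (n = 3), and USC1080, in which the rde-1 gene itself carries GFP, loxP and 3xFLAG, as input lysate (n = 2) and GFP::RDE-1 co-immunoprecipitate (co-IP, n = 2). The same tagged allele, rde-1(cmp133), was fed bacteria carrying the empty vector L4440 (n = 2) or expressing dcr-1 double-stranded RNA (n = 2), although that table's column names also list an RDE-4::FLAG tag that the labels do not. Strains with tagged alg-1(ap423) or alg-2(tor139), the main microRNA Argonautes, were fed L4440 or rde-1 double-stranded RNA, with n = 2 input lysates each. The mRNA libraries came from wild type (n = 3) and rde-1(ram40) (n = 3), a different allele from the one used for the small RNAs. Nothing says that replicates came from separate cultures, so the spread given may be technical. The labels name RNA 5′ pyrophosphohydrolase, the enzyme that makes triphosphate ends ligatable, for the wild type, rde-1(ne219) and GFP::RDE-1 input and co-IP libraries and not for the others. Across the 35 small RNA libraries used, 1 RPM stood for about 10.8 to 29.9 reads, and the mRNA libraries summed to 8.197e+06 to 9.002e+06 normalized counts. The rde-1 mRNA itself checked the ram40 label, with normalized counts of 1506, 1619 and 1389 in wild type and 1.07, 0.864 and 0.834 in the mutant.

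The members held 1322, 1347 and 1307 RPM in the wild type libraries and 7342, 6715 and 6489 RPM in the rde-1(ne219) libraries. Their share of all 22G-RNA reads was 0.323% ± 0.0049 (SD, n = 3) in wild type and 1.61% ± 0.052 (SD, n = 3) in the mutant. The 22G-RNA pool as a whole moved far less, at 410039 RPM in wild type and 425228 RPM in the mutant on average. Its classes moved in different directions. All WAGO rows went from 261090 to 237010 RPM, all CSR rows from 93688.5 to 124161 RPM and all unclassified rows from 55261 to 64057 RPM. Of the 4847 rows within the 2 limits on level, the 80 members are 1.65%, and the median ratio over those rows was 1.27, with 90% of them at or below 1.70. The same rule turned around, for rows higher in wild type, finds 33 rows. In each of the 80 members all 3 mutant libraries lay above all 3 wild type libraries, as the rule nearly requires. Replicate spread was small beside the differences, with a median coefficient of variation of 7.21% in wild type and 7.14% in the mutant. The first mutant library was the highest of the 3 for 69 of the 80 members, against 2057 of the 4847 rows (42.4%), and without it the rule finds 72 rows, all of them among the 80.

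**Figure D1:**
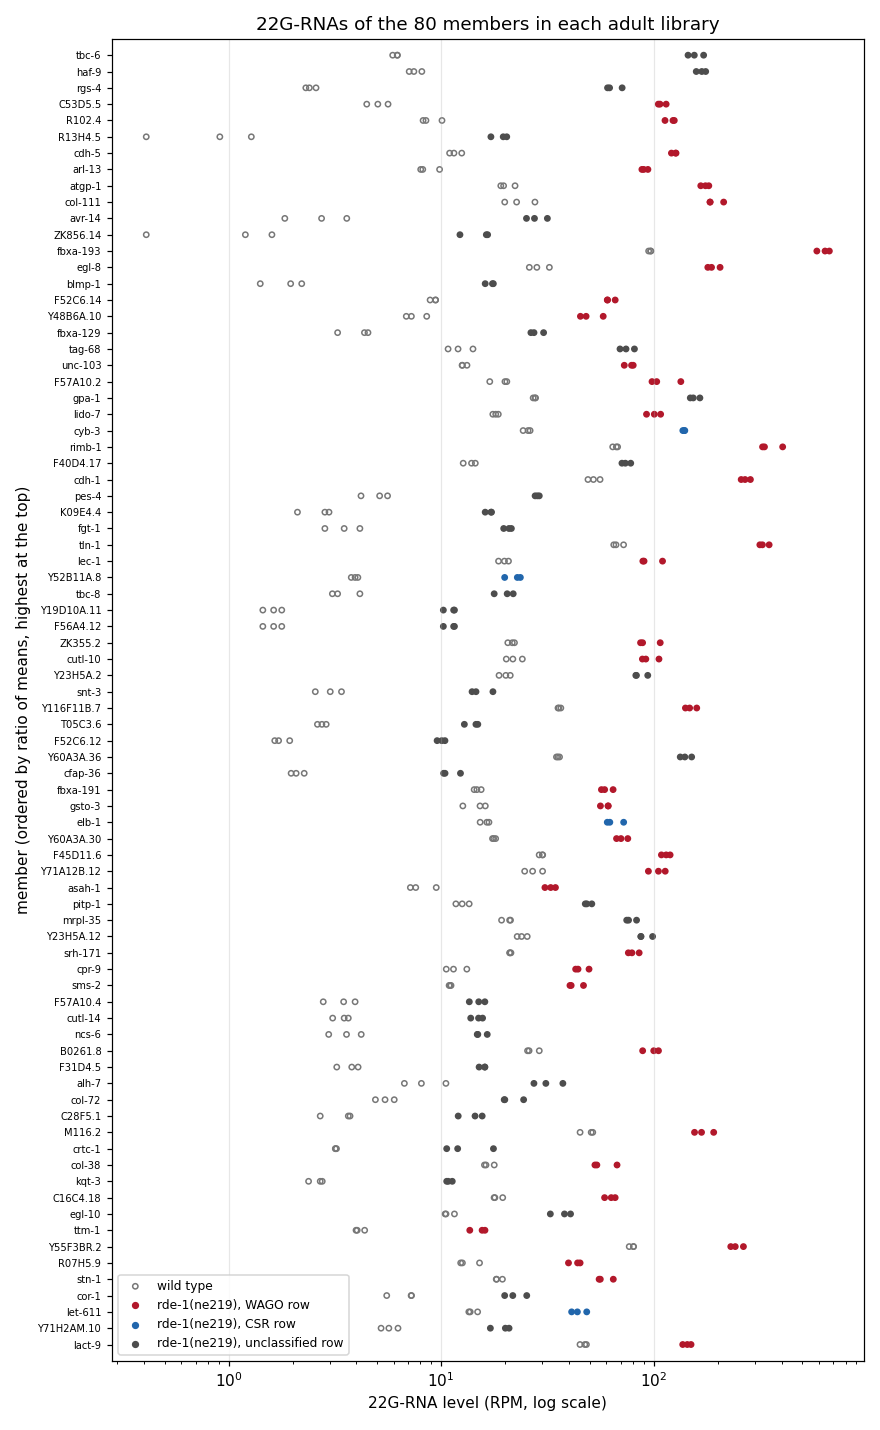
Level of 22G-RNAs (RPM, log axis) for each of the 80 members in the 3 wild type libraries (open circles) and the 3 rde-1(ne219) libraries (filled circles, coloured by the authors' class). Members are ordered by the ratio of means, from tbc-6 at 22.3 to lact-9 at 3.02, and in every row the filled circles lie to the right of the open ones.

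The ratio had a median of 4.09, reached 5 in 27 members and 10 in 6. WAGO members had the higher levels, with a median mutant mean of 97.3 RPM against 20.4 RPM for the unclassified members. The CSR members were cyb-3 (a B-type cyclin, 25.4 to 139 RPM), elb-1 (elongin B, 16.2 to 65.03 RPM), let-611 (14.03 to 44.5 RPM) and Y52B11A.8 (3.93 to 22.1 RPM), where the first value is the wild type mean and the second the mutant mean. At the limit of 3, let-611 (3.03), Y71H2AM.10 (3.03) and lact-9 (3.02) fell just inside, and clec-12 (2.98), lim-9 (2.97) and hpo-42 (2.95) just outside.

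No role joins the members as a whole, and 40 of the 80 could be placed in 10 groups by what their genes are known to do. This grouping was made after the members were known and is a description. None of the 50 genes on a list of the 22G-RNA and RNA interference pathway was a member.

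Genes of signalling through G proteins were the regulators rgs-4 and egl-10, the phospholipase C beta gene egl-8 and the alpha subunit gpa-1. Their 22G-RNAs summed to 66.6, 74.0 and 68.4 RPM in wild type and 471, 451 and 424 RPM in rde-1(ne219). The rgs-4 row had one of the largest ratios of all, 19.1, from 2.40, 2.31 and 2.58 RPM to 71.1, 60.7 and 62.1 RPM. Egl-8 had the highest level of the 4, at 26.0, 32.3 and 28.2 RPM in wild type and 206, 187 and 180 RPM in the mutant.

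Membrane traffic and cilia were represented by tbc-6 and tbc-8, which encode TBC-domain proteins of the kind that switch off Rab GTPases, by haf-9, a half-molecule ABC transporter of gut granules, by the ciliary GTPase gene arl-13 and by pitp-1, a phosphatidylinositol transfer protein. The tbc-6 row was the most changed of all, at 5.92, 6.23 and 6.22 RPM in wild type and 172, 155 and 145 RPM in the mutant. For haf-9 the wild type libraries had 7.45, 8.12 and 7.08 RPM and the mutant libraries 176, 169 and 159 RPM. Both genes have unclassified 22G-RNAs and could not be followed in the other small RNA tables used here.

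Genes of nerve and synapse were the ion channel genes unc-103, kqt-3 and avr-14, the RIM-binding protein gene rimb-1, the synaptotagmin snt-3 and the calcium sensor ncs-6. Rimb-1 had the second largest gain in RPM, from 64.2, 67.7 and 66.8 to 405, 326 and 332 RPM. Srh-171, of a chemoreceptor family, went with these as a predicted receptor and had 21.1, 21.3 and 21.0 RPM in wild type and 85.5, 79.1 and 76.1 RPM in the mutant.

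Genes for the surface of cells and the cuticle were the cadherins cdh-1 and cdh-5, the collagens col-111, col-38 and col-72, and the cuticlin-like genes cutl-10 and cutl-14. Cdh-5 had 12.5, 11.5 and 10.97 RPM in wild type and 127, 128 and 121 RPM in the mutant, a ratio of 9.97, and cdh-1 had more reads with a lower ratio of 5.09. Among the collagens the ratio ran from 3.34 (col-38) and 3.47 (col-72) to 7.99 (col-111). The col-111 row had 19.9, 27.7 and 22.7 RPM in wild type and 214, 184 and 184 RPM in the mutant.

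Cytoskeletal genes were tln-1 (talin, which ties integrins to actin), cor-1 (coronin) and stn-1 (syntrophin). The tln-1 row had 72.2, 66.6 and 64.95 RPM in wild type and 350, 325 and 316 RPM in the mutant. Genes of metabolism and transport included atgp-1, an amino acid transporter subunit, asah-1, an acid ceramidase, and sms-2, a sphingomyelin synthase. Fgt-1, a glucose transporter, ttm-1, alh-7 and gsto-3 were also in this group. Among them atgp-1 had the largest ratio, 8.22, at 19.7, 22.3 and 19.1 RPM in wild type and 182, 175 and 167 RPM in the mutant.

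Beside the CSR members cyb-3 and elb-1, genes of the cell cycle and of transcription were blmp-1, a zinc finger repressor, and crtc-1, a coactivator of CREB, which had low levels, at 1.86 and 3.20 RPM in wild type and 17.1 and 13.4 RPM in the mutant. The 40 members outside any group, most of them known by a sequence name only, had mutant means of 10.03 to 246 RPM and ratios of 3.02 to 18.2. C53D5.5 had the largest of these ratios, at 5.04, 5.63 and 4.47 RPM in wild type and 115, 107 and 105 RPM in the mutant. R102.4 followed, with 8.23, 8.49 and 10.1 RPM against 125, 123 and 113 RPM. R13H4.5 was the row with the least in wild type, at 0.91, 0.41 and 1.28 RPM, and had 20.4, 19.6 and 17.2 RPM in the mutant.

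The row with the largest gain was an F-box gene, fbxa-193, at 96.7, 94.8 and 97.1 RPM in wild type and 671, 641 and 586 RPM in the mutant. That row alone held 633 of the 6849 RPM that the members had on average in the mutant. Further F-box genes, fbxa-129 and fbxa-191, were also members. RefSeq's WBcel235 annotation, used for names and for gene order, matched 76 members, of which 70 were protein-coding and 6 were pseudogenes, namely these 3 F-box genes with F52C6.12, F52C6.14 and M116.2.

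Some members were close neighbours, and some shared values. In 6 pairs, with 11 members in all, at most 1 other gene lay between the members. These pairs were fbxa-191 with fbxa-193, fbxa-193 with fbxa-129, F57A10.2 with F57A10.4, F52C6.12 with F52C6.14, mrpl-35 with pitp-1, and col-72 with ncs-6. Y19D10A.11 and F56A4.12 had identical values in all 6 libraries, and Y116F11B.7, Y60A3A.36 and Y60A3A.30 kept a constant ratio to each other within 5%. That limit does not find every such pair. Y23H5A.2 and Y23H5A.12 fell outside it but also moved together, with means of 20.0 and 24.1 RPM in wild type and 86.5 and 91.1 RPM in the mutant. Reads common to the genes of such a set may be counted in each of these rows, so the 80 rows are fewer than 80 independent signals, and the values of these members are uncertain for the single gene. The file's rows for other classes name 2 members again, ttm-1 among targets of the ALG-3/4 pathway and Y55F3BR.2 among targets of the ERGO-1 pathway. The primary 26G-RNAs of both were listed at 0 in all 6 libraries, apart from 0.07 RPM for Y55F3BR.2 in the third mutant library. None of the 1193 rows of Dicer-dependent 23H-RNAs in the table names a member's gene.

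The microRNAs mir-35 to mir-42, which are known to be most abundant in embryos, were lower as a sum in the mutant gravid adults. Their 16 rows summed to 35526 to 41589 RPM in wild type and 24937 to 28769 RPM in rde-1(ne219). All 3 mutant libraries lay below all 3 wild type libraries in 9 of the 16 rows and above them in 0, and no row was at 0 throughout. The sum over all 439 microRNA rows was lower in the mutant too. It was 225615, 199003 and 203559 RPM in wild type and 179774, 181847 and 198471 RPM in rde-1(ne219). How many of all microRNA rows lay apart in this way was not counted. The part of the mir-35 to mir-42 difference in the members' gain was not tested. Let-7 rows, which mark later stages, summed to 206, 150 and 150 RPM in wild type and 134, 186 and 250 RPM in the mutant, which overlap.

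The 42 WAGO and CSR members were also listed in the tables of the other small RNA experiments. Each table was normalized separately, so levels set across tables are descriptions. In input lysates of the GFP::RDE-1 strain, which keeps the rde-1 gene, these 42 summed to 984 RPM, close to the 1045 RPM of wild type and far from the 5210 RPM of rde-1(ne219). On the log2(RPM + 1) scale 40 of the 42 lay nearer to the wild type level than to the mutant level. The members were chosen by these same wild type and mutant levels, and the count was not made for other rows. Such counts, and shares above wild type, are therefore descriptions and no test of what the rde-1 gene does. Y48B6A.10, at 28.2 and 31.6 RPM, was the 1 member at least 3-fold above its wild type mean of 7.56 RPM, with 1 RPM added to both, a share of 2.38% against 0.538% of all WAGO and CSR rows of 1 to 100 RPM in wild type. The fbxa-193 row had 141 and 144 RPM there, between the wild type and mutant values.

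The L4440-fed animals of the tagged strain gave a more mixed picture, with a sum of 2058 RPM. Here 33 of the 42 members lay nearer to the wild type level, 4 were at least 3-fold above it with 1 RPM added to each mean, and 2 reached or passed the rde-1(ne219) mean. Without the added 1 RPM fbxa-191, at 44.7 against 14.8 RPM, would also be 3-fold above wild type. The share 3-fold above wild type, 9.52%, stood beside 0.319% of all WAGO and CSR rows of 1 to 100 RPM in wild type. The members, unlike those rows, were chosen for low values in the same wild type libraries. The 2 shares are therefore not like for like and are given as a description. The fbxa-193 row, at 745 and 745 RPM, was above its mutant mean of 633 RPM, and asah-1 had 36.4 and 34.96 RPM against 32.7 RPM. Col-111, at 172 and 174 RPM, came close to its mutant level of 194 RPM, while cdh-5 (4.35 and 2.96 RPM) and tln-1 (29.1 and 31.4 RPM) were below their wild type means of 11.7 and 67.9 RPM. Food, strain labels and the enzyme treatment named in the labels differ between these tables as well as the libraries, and these cannot be told apart.

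**Figure D2:**
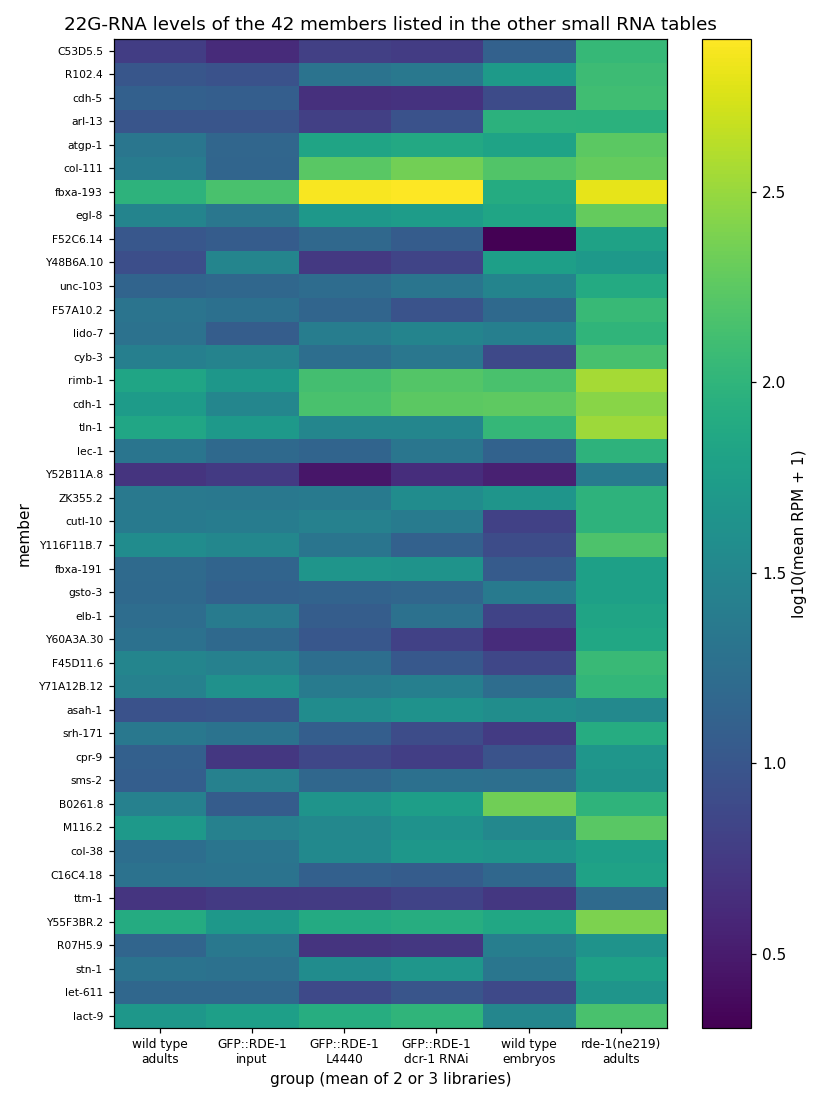
Mean 22G-RNA level (colour, log10 of mean RPM + 1) of the 42 members listed in the other small RNA tables, in 6 groups of 2 or 3 libraries. The right-hand column, rde-1(ne219), is the brightest for most members, but fbxa-193 was as high on L4440 (745 RPM) and B0261.8 was higher in embryos (215 RPM against 98.1 RPM).

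In wild type embryos the members split into high and low. In all 25921 rows that both tables share, the adult columns of the embryo table are identical to the wild type columns beside rde-1(ne219), although their labels differ on the enzyme treatment. Because the members were chosen for low values in those adult libraries, embryo levels are described with no test. Of the 42, 20 were higher in both embryo libraries than in all adult libraries, 21 were lower and ttm-1 overlapped. Over all WAGO and CSR rows 11.3% were higher in embryos and 80.8% lower, and over WAGO rows alone 26.4% were higher and 64.2% lower. The 20 higher members were all WAGO rows, and the 4 CSR members were all lower. Of the 42, 8 (19.05%) were at least 3-fold above the adult mean on the same scale (1 RPM added), against 1.61% of WAGO and CSR rows of 1 to 100 RPM in wild type adults. All 8 were WAGO members, 21.05% of those, against 4.065% of WAGO rows with a mean of at least 1 RPM over the embryo and adult libraries.

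The highest embryo level was that of B0261.8, at 224 and 207 RPM against 26.8 ± 1.89 RPM (SD, n = 3) in wild type adults and 98.1 RPM in rde-1(ne219) adults. Cdh-1 had 179 and 180 RPM in embryos, and col-111 had 154 and 162 RPM, both above every wild type adult library and below the mutant adult mean. Rimb-1 had 136 and 150 RPM, and tln-1 had 106 and 106 RPM, in the same order. For arl-13 the embryo libraries, at 88.0 and 96.5 RPM, reached the mutant adult level of 90.7 RPM from a wild type adult mean of 8.69 RPM. At the other end, F52C6.14 had 0.91 and 1.15 RPM in embryos against 9.24 RPM in adults, and cutl-10 had 5.58 and 5.43 RPM against 22.1 RPM. The mir-35 to mir-42 rows summed to 115962 and 146229 RPM in these embryo libraries, which marks them as embryonic.

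Feeding dcr-1 double-stranded RNA asks whether the members' 22G-RNAs change when the Dicer gene is targeted. The siRNAs of the dcr-1 gene itself checked the labels, at 56.9 and 71.2 RPM on L4440 and 16970 and 16750 RPM on dcr-1 RNAi. They show the feeding and not how far Dicer was reduced, so the counts below are no measure of dependence on Dicer. All 42 members had enough reads for the test, limma on log2(RPM + 1) with Benjamini-Hochberg adjustment over the 7704 rows of the table and a threshold of 0.05. In all, 12 members rose, 6 fell and 24 did not pass, with a median log2 fold change of 0.19. Among all WAGO and CSR rows 22.4% rose and 0.814% fell, with a median of 0.26, and over all rows 17.8% rose and 3.36% fell. The 12 rises are 28.6% of the members, near the general share, and the 6 falls are 14.3%, above it.

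The members that fell were F45D11.6, Y60A3A.30, Y116F11B.7, F57A10.2, srh-171 and F52C6.14. F45D11.6 had 17.9 and 14.98 RPM on L4440 and 10.0 and 9.12 RPM on dcr-1 RNAi, a log2 fold change of -0.72 ± 0.15 (SE, limma adjusted p = 0.0061). Y116F11B.7 had 21.3 and 17.8 RPM on L4440 and 12.4 and 11.3 RPM on dcr-1 RNAi, a change of -0.67 ± 0.15 (SE, limma adjusted p = 0.0063). Both libraries of each group lay apart in these 6 members, which is common with 2 libraries in each group. Among the 42 members the groups lay apart downward in 10 and upward in 25. Over all 7704 rows they did so in 943 and 4311, and over the 5528 WAGO and CSR rows in 258 and 3756. F57A10.2 fell by 0.60 on the log2 scale, from 13.7 and 12.6 RPM to 8.63 and 8.03 RPM (limma adjusted p = 0.016), and the pseudogene F52C6.14 fell by 0.43, from 14.97 and 13.9 RPM to 10.1 and 10.8 RPM (limma adjusted p = 0.048).

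Among the 6, the rows of Y116F11B.7, Y60A3A.30, srh-171 and F45D11.6 moved together in the 4 tables compared. Over 16 libraries of 4 tables the ratio between any 2 of them varied by a factor of at most 1.28. These 4 rows may count some of the same reads, so they are not 4 independent falls, and which gene they come from is uncertain. All 6, which are WAGO rows, were also below every adult library in wild type embryos, as were 17 of the 38 WAGO members and 64.2% of all WAGO rows.

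Of the members that rose, elb-1 went from 9.73 and 11.8 RPM to 18.99 and 16.96 RPM, a log2 fold change of 0.70 ± 0.15 (SE, limma adjusted p = 0.0064). ZK355.2 went from 21.1 and 23.4 RPM to 34.6 and 37.03 RPM (0.66 ± 0.12, SE, limma adjusted p = 0.0019). The galectin gene lec-1 rose by 0.57, arl-13 by 0.53 and col-38 by 0.47 on the same scale. The remaining rises were those of M116.2, B0261.8, col-111, cdh-1, stn-1, rimb-1 and lact-9, between 0.28 and 0.38. Members with large gains in the mutant were among those that did not pass, such as fbxa-193, at 745 and 745 RPM on L4440 and 806 and 782 RPM on dcr-1 RNAi (0.09 ± 0.06, SE, limma adjusted p = 0.23), and tln-1 (0.02 ± 0.12, SE, limma adjusted p = 0.90).

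**Figure D3:**
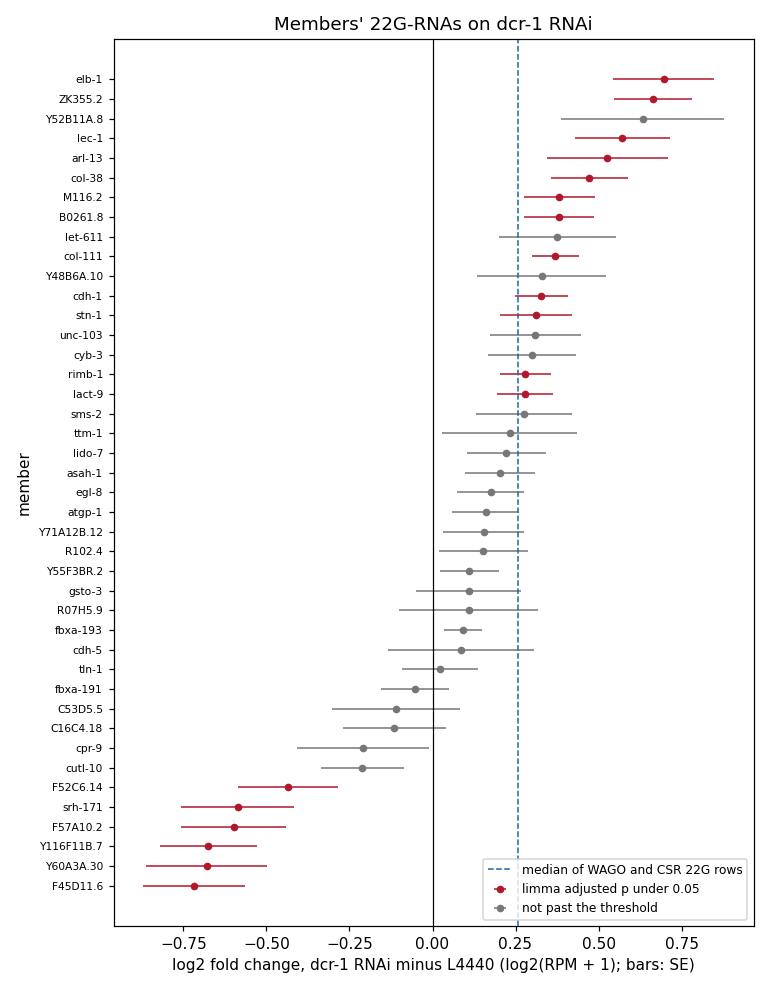
Log2 fold change with its standard error for the 42 members, dcr-1 RNAi minus L4440, on the log2(RPM + 1) scale, with 2 libraries in each group. Red points passed the threshold, and the dashed line marks the median of 0.26 over WAGO and CSR rows, to the left of which the 6 members that fell stand apart at -0.43 to -0.72.

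Most rises in this comparison depended on the scale. Rises made up 84.1% of all calls with the values as deposited and 20.8% with every library centred on its median. With centring 2 members rose (elb-1 and ZK355.2) and 7 fell, the same 6 with cutl-10, beside 2.37% and 3.24% of WAGO and CSR rows. Rescaling each library to its 22G rows gave the same 2 and 7 members, beside 1.3% and 2.55% of WAGO and CSR rows. Many calls also rested on replicate 1 of either group. Without L4440 replicate 1 limma called 0 members, with 19 at an unadjusted p under 0.05, without dcr-1 RNAi replicate 1 only 1 rose and 0 fell, and leaving out either other library left 7 rises and 3 or 2 falls. The 6 falls kept their direction in all 9 settings run, with F45D11.6 between -0.92 and -0.60. The groups did not overlap in these 6 members, so leaving out a library or changing the pseudocount or filter could not reverse the direction. Of the 50 pathway genes 32 rows were tested, with nrde-3 both as a WAGO and as a CSR row. With the values as deposited 10 of the 32 rose and 0 fell, with a median of 0.31. Over all WAGO and CSR rows on that scale 22.4% rose and 0.814% fell, with a median of 0.26. The pathway rows were not counted with centred libraries.

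The GFP::RDE-1 co-IP asks whether RDE-1 holds these 22G-RNAs. All 42 members were lower in the co-IP than in the input lysate, with a median log2 fold change of -1.88 (limma, adjusted over 9046 rows). This is the general state of 22G-RNAs there, since 99.8% of WAGO and CSR rows and 87.2% of all rows were lower and 0% and 6.94% higher, with a median of -2.07 for WAGO and CSR rows. R07H5.9 had the lowest value on the log2(RPM + 1) scale, and with a pseudocount of 0.1 gsto-3 (-2.56) was below it (-2.46). For R07H5.9 the input libraries had 19.9 and 22.9 RPM and the co-IP libraries 3.91 and 3.69 RPM (-2.22 ± 0.15, SE, limma adjusted p = 6.03e-05). Stn-1 (-2.15), gsto-3, an omega-class glutathione transferase (-2.12), M116.2 (-2.08) and tln-1 (-2.07) were next. C53D5.5 (-1.144) and cpr-9 (-1.295) were depleted least on this scale, both from low input levels. Atgp-1 followed, at 13.5 and 13.7 RPM in input and 5.14 and 4.66 RPM in the co-IP (-1.31 ± 0.15, SE). With libraries centred on their median 0 members were lower and 1, atgp-1, was higher, and the members' median was -0.11 against -0.09 over all rows.

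The summed 22G-RNAs of the members overlapped between animals fed rde-1 double-stranded RNA and L4440. In the 8 input libraries of the tagged alg-1 and alg-2 strains, whose labels name no pyrophosphohydrolase, the 42 members together held 5.13 to 9.23 RPM, and 8 to 11 of them were at 0 in each library. In the alg-1 strain the sums were 9.23 and 8.72 RPM on L4440 and 9.03 and 7.85 RPM on rde-1 RNAi. In the alg-2 strain they were 6.68 and 6.20 RPM on L4440 and 5.13 and 7.15 RPM on rde-1 RNAi. All WAGO and CSR rows together held only 2669 to 4279 RPM in these inputs. In wild type adults WAGO rows summed to 261090 RPM and CSR rows to 93688.5 RPM on average. With so few 22G-RNA reads, these inputs cannot show whether a gain like that from 1045 to 5210 RPM in rde-1(ne219) took place. In the alg-1 strain 0 members reached the mean of 1 RPM needed for the test. In the alg-2 strain only Y55F3BR.2 did, with 1.03 and 1.40 RPM on L4440 and 0.70 and 1.05 RPM on rde-1 RNAi (-0.24 ± 0.24 on the log2 scale, SE, limma adjusted p = 0.84). Among all WAGO and CSR rows tested there 0.325% rose and 0% fell. With no filter on low values 39 members were tested in each strain and limma called 0, with median log2 fold changes of 0.0029 and 0.0067. An unadjusted limma p under 0.05 was reached by 0 and 3 members, beside 904 of 19650 and 953 of 19760 rows. Single members were too low here for a change in each to be read.

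The mRNAs of the members' genes address whether more 22G-RNAs went with less transcript, as far as a different rde-1 allele can show. The mRNA table lists 76 of the 80 genes, and 65 passed a mean of 10 normalized counts. In limma's test 0 of the 65 rose and 0 fell (on log2(normalized count + 1), adjusted over 11331 genes). An unadjusted limma p under 0.05 was reached by 6 of the 65 members and by 895 of the 11331 genes. Over all genes 0.0794% rose and 0.282% fell. The members' median log2 fold change was -0.08 against 0.02 over all genes, with 38 below 0 and 27 above. In 6 members all mutant libraries lay below all wild type libraries, and in 2 above, which is 9.23% and 3.08% of the 65, beside 6.16% and 6.77% of all genes.

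**Figure D4:**
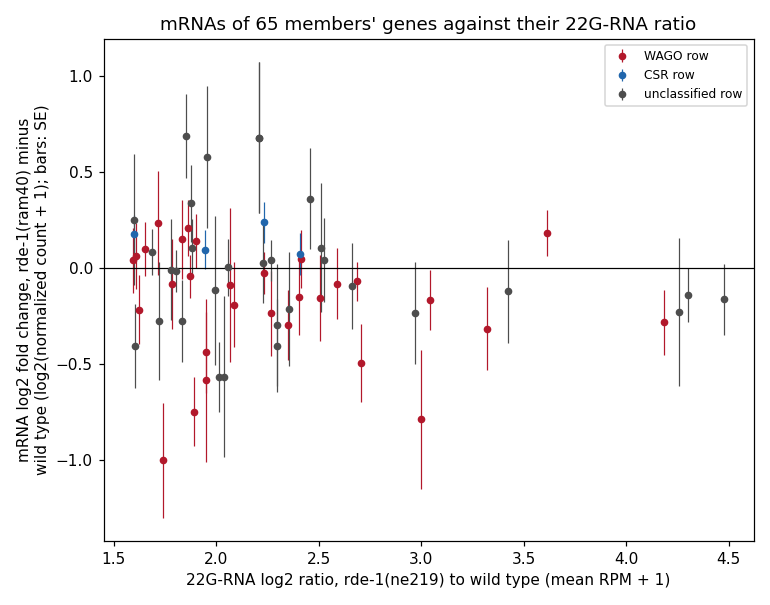
Log2 fold change of mRNA in rde-1(ram40) against wild type (vertical axis, log2(normalized count + 1), bars SE, n = 3 and 3) for 65 members, plotted against the log2 ratio of 22G-RNAs in rde-1(ne219) (horizontal axis). Points lie on both sides of 0 at low ratios, from -1.002 (col-38) to 0.69 (F57A10.4), and none passed the threshold.

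The lowest value was that of col-38, with 22.1, 43.0 and 34.3 normalized counts in wild type and 17.2, 14.9 and 14.4 in rde-1(ram40) (-1.002 ± 0.30, SE, limma adjusted p = 0.37). Asah-1 had 185, 185 and 137 normalized counts in wild type and 115.7, 82.9 and 102 in the mutant (-0.75 ± 0.18, SE, limma adjusted p = 0.18). The groups do not overlap for these 2 genes, nor for T05C3.6, fbxa-193, cdh-1 and C53D5.5. The fbxa-193 mRNA had 65.1, 102 and 76.4 normalized counts in wild type and 55.7, 62.1 and 51.4 in the mutant (-0.49 ± 0.20, SE, limma adjusted p = 0.61).

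Of the 4 members with the largest 22G-RNA ratios, tbc-6, haf-9 and rgs-4 had overlapping mRNA levels and C53D5.5 did not. For tbc-6 the wild type libraries had 112, 89.8 and 114 normalized counts and the mutant libraries 80.4, 116.1 and 86.7 (-0.16 ± 0.18, SE). For haf-9 they had 266, 212 and 212 against 228, 211 and 186 (-0.14 ± 0.14, SE), and rgs-4, at 9.19 to 23.2 normalized counts, overlapped as well (-0.23 ± 0.39, SE). C53D5.5 had 98.99, 105 and 88.5 normalized counts in wild type and 83.0, 69.3 and 88.1 in the mutant (-0.28 ± 0.17, SE, limma adjusted p = 0.71). The CSR member cyb-3 had by far the most mRNA of those named, with 6937, 7066 and 5811 normalized counts in wild type and 7364, 6485 and 6930 in the mutant (0.07 ± 0.11, SE). A gene of the pair F57A10.2 and F57A10.4 had the highest value, 78.3, 89.7 and 126 against 115.8, 169 and 190.7 normalized counts for F57A10.4 (0.69 ± 0.22, SE, limma adjusted p = 0.44).

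Marker genes were read beside these mRNAs. Of the lists for oocyte (9 of 9 genes tested), yolk (6 of 6), germ line (6 of 6), intestine (3 of 3), muscle (3 of 3), neurons (3 of 3) and cuticle (3 of 4), limma called 0 genes. An unadjusted limma p under 0.05 was reached by 3 muscle, 2 yolk, 1 germ line and 1 cuticle gene, beside 895 of all 11331 genes tested. Of 14 sperm genes 0 reached the minimum count. The median change was -0.62 for the muscle genes, whose sums were 4490 to 6184 normalized counts in wild type and 2840 to 4288 in the mutant, and -0.34 for yolk. It was -0.33 for cuticle, beside the low values of col-38 and col-111, -0.21 for intestine, 0.06 for germ line, 0.01 for oocyte and 0.02 for neurons. The part of these in the members' values was not tested. Of the 50 pathway genes 45 were tested, rde-1 fell and no other passed.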

How the data were processed

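Small RNA tables hold RPM values from the authors' tinyRNA runs and their own Python code, per the labels' design text; the RPM denominator and genome build are not given in the sources used here, so no coordinates are printed. The mRNA table holds signal values (normalized counts) that the authors deposited after fastp, STAR, RSEM and DESeq2, per the submitters' processing notes. A dcr-1 RNAi column is matched to its group only. Low RPM values lay on whole-read steps in 72.9% to 93.3% of cases, so no count test was run.

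The members and gene lists were chosen with earlier results of these data known. Each comparison was fitted over all rows of its table with limma 3.58.1 in R 4.3.3 (lmFit, eBayes with trend) on log2(value + 1), for rows whose mean reached 1 RPM or 10 normalized counts, with Benjamini-Hochberg adjustment and a threshold of 0.05, and checked on simulated data. Fold changes on this scale understate those of low rows. Named were the 10 members with the largest gain and the 10 with the largest ratio, 3 rows on either side of the limit, up to 5 per direction and comparison, the 5 highest in embryos, families of 3 or more, and others, for the roles of their genes, chosen after their values were seen. Alternatives were another pseudocount, no filter, centred or rescaled libraries, each library left out and the replicate number as a block. Of 53 samples, the nrfl-1 RNAi experiments were not analysed here.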

Additional observations from a re-analysis of the deposited data

How the results depend on the processing

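The rule found 80 members as reported, 94 with a pseudocount of 0.1, 72 after rescaling to the 22G rows, 61 with a minimum of 20 RPM, 72 to 86 without 1 library, and 64 when every same-numbered pair had to pass (replicate block).

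For dcr-1 RNAi, 1632 rows were called as reported, 798 with centred libraries, 560 with rescaled libraries, 31 with no filter and 94 to 1115 without 1 library. Members that rose numbered 12 as reported, 2 with centred and 2 with rescaled libraries, 0 with no filter and 0 to 7 without 1 library. Members that fell numbered 6 as reported, 7 with centred and with rescaled libraries, 0 with no filter and 0 to 3 without 1 library. No paired analysis was possible for dcr-1 RNAi because the groups share only 1 replicate number.

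For mRNA, 41 genes were called as reported, 89 with the replicate block and 14 to 50 without 1 library (14 and 18 without wild type replicates 1 and 2), and members called stayed at 0 under every alternative run. For the GFP::RDE-1 co-IP, 8520 rows were called as reported, 3210 with centred and 1305 with rescaled libraries, where 1 member was higher and 0 were lower; tln-1 then had a log2 fold change of 0.0082 with rescaled libraries. For rde-1 RNAi in alg-1 inputs, 22 rows were called as reported, 11 with the replicate block, 11 with centred libraries, 9 with inputs and co-IPs fitted together, 9 with no filter and 6 to 72 without 1 library. In alg-2 inputs 32 were called as reported, 157 with centred libraries, 3 with no filter and 10 to 155 without 1 library. No member was called in either under any alternative. The causes were not tested.

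Whether the replicate numbers pair the samples is uncertain. Correlations were -0.161 to 0.222 for libraries of the same number and -0.302 to 0.105 for libraries of different numbers. The block values therefore stand only here, and they changed no call of a member. Groups of 2 leave few degrees of freedom, and rows near 1 RPM rest on about 10.8 to 29.9 reads.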
